A study of Mus musculus with 10 samples.

Results

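The 9 genes described here encode the enzymes that make citrulline in the small intestine and that turn it into arginine or break arginine down. They are *Cps1*, *Otc*, *Nags*, *Aldh18a1*, *Oat*, *Prodh*, *Ass1*, *Asl* and *Arg2*, chosen by gene name from the 45707 rows of the gene table, and each had 1 row. All 9 were measured in every library, with 61 to 7624 reads per gene and library. Jejunal RNA of 5 control (Vil-Cre) mice and of 5 Vil-Cre:NDI1 mice was sequenced, 1 library per mouse. All 10 mice carried Villin-Cre, which acts in intestinal epithelium, and Vil-Cre:NDI1 mice also carried NDI1, the NADH dehydrogenase of *Saccharomyces cerevisiae*, behind a lox-stop-lox sequence at *ROSA26*. The mice were male littermates aged 8 to 12 weeks, fasted overnight for 16 to 18 h, and their tissue was taken 1 h after a gavage of water. Whole jejunal tissue was used, so each value sums epithelium, muscle, immune and other cells, and fewer cells of a type and less RNA per cell cannot be told apart. Values are normalized counts, which are reads per gene divided by 1 size factor per library.

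Enterocytes take up glutamine, convert it through glutamate and pyrroline-5-carboxylate to ornithine, and join ornithine to carbamoyl phosphate to give citrulline. These steps take place in mitochondria. Citrulline leaves the gut in the blood, and the kidney and other tissues convert it to arginine, which makes circulating citrulline a marker of enterocyte mass. The adult gut keeps little of the enzymes that turn citrulline into arginine, whereas periportal hepatocytes hold the complete urea cycle. The comparison of genotypes asks whether an alternative route for NADH oxidation in epithelium changes the RNA of these enzymes in mice that received no drug.

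Libraries held 10145705 to 12371530 reads on genes. NDI1 had 982, 1371, 2575, 1394 and 1511 normalized counts in Vil-Cre:NDI1 replicates 1 to 5, and 0, 0, 1.00, 0 and 0 in the Vil-Cre replicates. Its adjusted p of 7.14e-09 (limma, Benjamini-Hochberg over all genes tested) made it the 1 gene of 14301 that passed 0.05, which is 0.00699% of genes. The enterocyte marker *Vil1* lay between 35067 and 49248 in all libraries. The sum of 10 enterocyte markers ran more widely, from 283880 in Vil-Cre 5 to 571096 in Vil-Cre:NDI1 5. All 10 had the higher mean in Vil-Cre:NDI1 mice, and the sums of the genotypes overlapped. Hepatocyte marker transcripts were present in unequal amounts. The sum of 11 hepatocyte markers was 1390, 170, 524, 39.4 and 996 in Vil-Cre replicates 1 to 5 and between 32.3 and 96.0 in Vil-Cre:NDI1 mice. All 11 had the higher mean in Vil-Cre mice, and none was at 0 in every library.

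The table of RefSeq promoters (GRCm38.p6) held 6 of the 9 genes, namely *Otc*, *Nags*, *Aldh18a1*, *Oat*, *Prodh* and *Ass1*. The 250 bases before the start of *Otc* and *Ass1* are shown because these genes stand at either side of citrulline, which *Otc* forms and *Ass1* uses. The *Otc* stretch is chrX:10252055-10252304 on the plus strand and the *Ass1* stretch is chr2:31470020-31470269 on the plus strand, each 5′ to 3′. The RefSeq start of *Ass1* lies downstream of its GENCODE start, so the end of that stretch is inside the gene as GENCODE places it.
Otc: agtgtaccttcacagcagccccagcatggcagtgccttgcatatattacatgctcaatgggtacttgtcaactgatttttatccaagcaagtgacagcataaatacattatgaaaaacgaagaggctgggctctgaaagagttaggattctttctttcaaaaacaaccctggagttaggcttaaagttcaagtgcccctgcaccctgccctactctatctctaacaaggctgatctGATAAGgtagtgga
Ass1: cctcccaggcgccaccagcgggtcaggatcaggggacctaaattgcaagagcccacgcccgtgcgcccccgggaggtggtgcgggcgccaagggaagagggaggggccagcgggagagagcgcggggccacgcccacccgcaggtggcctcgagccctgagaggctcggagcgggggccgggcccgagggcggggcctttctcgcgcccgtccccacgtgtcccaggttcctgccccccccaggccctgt
Capitals mark the match to GATAAG, which begins 14 bases before the *Otc* start. The 6 motifs given here were searched on both strands, and this was the single match in the 6 promoters. GATAAG was found in 6.60% of 27025 promoters of the same length. TATAAA was found in 13.0% of them, the CDX letters TTTATNG in 10.2%, the HNF4 letters CAAAGTNCA in 1.21%, the HNF1 letters GTTAATNAT in 0.781% and the C/EBP letters TTGCGNAA in 0.670%. The *Ass1* stretch was 75.6% G or C, the *Otc* stretch 43.6%, and the median promoter 52.0%.

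The enzymes differed widely in abundance. Per kb of exon, *Oat* had the highest level (2493 ± 381 normalized counts per kb, SD, n = 10 mice), followed by *Arg2* (2055 ± 619), *Cps1* (637 ± 129), *Aldh18a1* (370 ± 75.1), *Otc* (297 ± 34.8), *Nags* (226 ± 26.5), *Prodh* (93.8 ± 24.7), *Asl* (50.5 ± 17.5) and *Ass1* (40.7 ± 17.5). Ranges over the 10 mice did not overlap between *Arg2* and *Cps1* or between *Nags* and *Prodh*, whereas all other neighbours in this order overlapped. *Oat* was above *Arg2* in 9 of 10 mice, and *Otc* was above *Nags* in 10 of 10. *Nags*, *Cps1* and *Otc* stood above *Ass1* and *Asl* in every mouse. With the longest coding transcript in place of all annotated exons, the order of the 9 means was the same, but *Prodh* moved to 306 per kb beside *Nags* at 317.

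**Figure D1:**
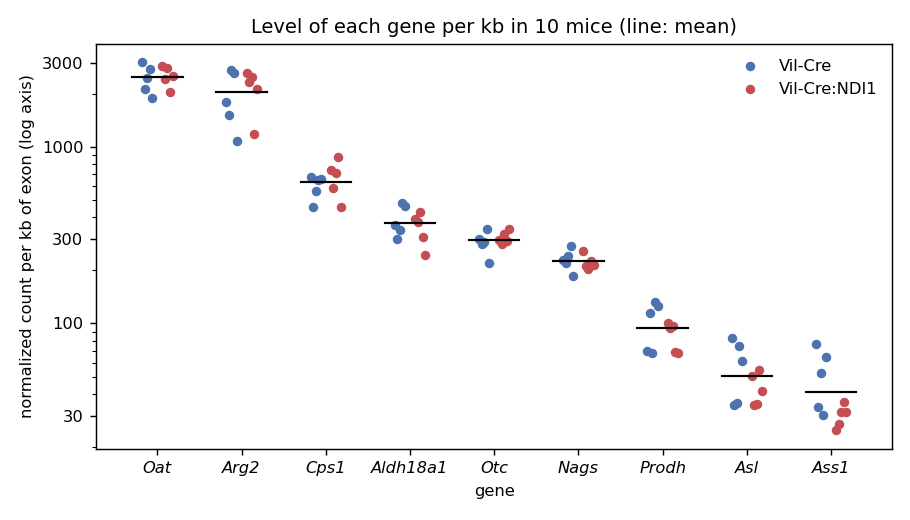
Level of each of the 9 genes per kb of exon (vertical axis, normalized counts per kb, log scale) in 5 Vil-Cre and 5 Vil-Cre:NDI1 mice, 1 point per mouse, with a line at the mean of all 10. *Oat* and *Arg2* lie above 1000 and *Asl* and *Ass1* below 100 in every mouse.

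Carbamoyl phosphate and citrulline formation came first. *Nags*, at chr11:102145513-102149477 (GRCm38), makes N-acetylglutamate, the activator that CPS1 requires. It had 647, 623, 683, 782 and 526 normalized counts in Vil-Cre replicates 1 to 5 and 734, 599, 576, 644 and 606 in Vil-Cre:NDI1 replicates 1 to 5. The lowest and the highest value were both in Vil-Cre mice, and the groups overlapped. Its log2 fold change was -0.04 (SE 0.11, 95% interval -0.28 to 0.20; exact permutation p = 0.738). An antisense gene, *Gm11586*, overlaps it, at a mean of 71.0 normalized counts, and whether reads were counted by strand is not given in the sources used here.

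*Cps1*, at chr1:67123026-67231259, encodes the mitochondrial carbamoyl phosphate synthetase. Its values were 3751, 2551, 3114, 3615 and 3675 in Vil-Cre mice and 4129, 3239, 3950, 4856 and 2527 in Vil-Cre:NDI1 mice. Both extremes, a 1.92-fold range, were in Vil-Cre:NDI1 mice. The log2 fold change was 0.14 (SE 0.17, 95% interval -0.23 to 0.52; exact permutation p = 0.492).

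*Otc*, at chrX:10252305-10321024, encodes ornithine transcarbamylase, which forms citrulline. Vil-Cre mice had 1281, 1197, 1229, 1450 and 937 normalized counts and Vil-Cre:NDI1 mice had 1259, 1193, 1366, 1251 and 1447. Values of 9 mice lay between 1193 and 1450, and Vil-Cre 5 was below them. *Otc* had a log2 fold change of 0.11 (SE 0.11, 95% interval -0.14 to 0.35; exact permutation p = 0.460). The *Otc* to *Cps1* ratio within a library, which does not depend on the size factor, was 0.365 in Vil-Cre and 0.356 in Vil-Cre:NDI1 mice (geometric means; p = 0.889, two-sided exact permutation test). In single mice it ran from 0.255 in Vil-Cre 5 to 0.573 in Vil-Cre:NDI1 5.

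**Figure D2:**
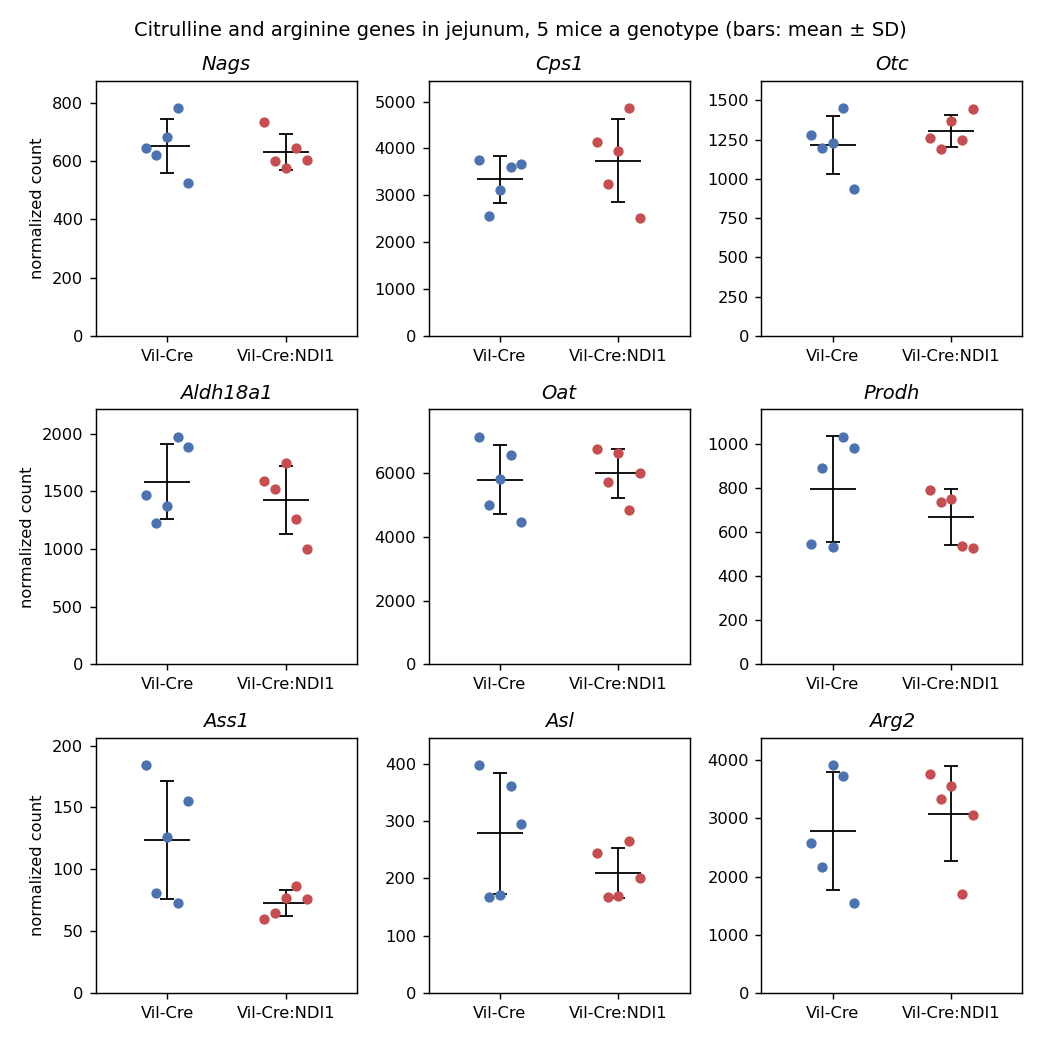
Normalized count (vertical axes, from 0) of each gene in 5 Vil-Cre and 5 Vil-Cre:NDI1 mice, 1 point per mouse in replicate order from left to right, with bars at the mean ± SD. The groups overlap in all 9 panels, and the Vil-Cre points of *Ass1* spread from 72.8 to 184 against 59.8 to 86.2 in Vil-Cre:NDI1 mice.

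Ornithine supply has a branch from glutamate and another from proline. *Aldh18a1*, at chr19:40550257-40588463, encodes pyrroline-5-carboxylate synthase, which opens the route from glutamate. Its normalized counts were 1467, 1225, 1377, 1974 and 1886 in Vil-Cre and 1593, 1524, 1750, 1264 and 1001 in Vil-Cre:NDI1 mice. The highest value was in Vil-Cre 4 and the lowest in Vil-Cre:NDI1 5. The log2 fold change was -0.16 (SE 0.17, 95% interval -0.53 to 0.22; exact permutation p = 0.452).

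*Prodh*, at chr16:18060357-18090203, encodes proline dehydrogenase, which passes electrons from proline to the respiratory chain. Vil-Cre mice had 545, 891, 531, 1030 and 978 normalized counts, and Vil-Cre:NDI1 mice had 789, 734, 750, 536 and 528. Each genotype held values between 528 and 545 and values of 734 or more, with none between. Its log2 fold change was -0.22 (SE 0.21, 95% interval -0.68 to 0.25; exact permutation p = 0.421), and it was -0.54 (limma adjusted p = 1.00) in the 7 libraries without Vil-Cre 1, 3 and 5, which had the highest hepatocyte sums. Vil-Cre 1 and 3 had the lowest *Prodh* values of the Vil-Cre mice (545 and 531), so leaving them out enlarges the difference by construction. *Dgcr6* overlaps *Prodh* on the other strand, at a mean of 640 normalized counts. The *Aldh18a1* to *Prodh* ratio was 2.04 in Vil-Cre and 2.13 in Vil-Cre:NDI1 mice (p = 0.802, exact permutation test).

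*Oat*, at chr7:132557478-132576398, encodes ornithine aminotransferase, which links pyrroline-5-carboxylate to ornithine. It had 7124, 5003, 5802, 6551 and 4450 normalized counts in Vil-Cre and 6757, 5712, 6624, 4833 and 5985 in Vil-Cre:NDI1 mice. Vil-Cre mice held both the highest and the lowest value. The log2 fold change was 0.06 (SE 0.14, 95% interval -0.25 to 0.37; exact permutation p = 0.730), and its sign turned with libraries scaled to equal totals (-0.0038).

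Citrulline use is the step that *Ass1* and *Asl* carry out. *Ass1*, at chr2:31470207-31520672, encodes argininosuccinate synthase, which joins citrulline to aspartate. Its values were 184, 81.0, 126, 72.8 and 155 normalized counts in Vil-Cre and 59.8, 64.7, 76.5, 86.2 and 76.3 in Vil-Cre:NDI1 mice. Vil-Cre 1, 3 and 5 were above every other library, while Vil-Cre 2 and 4 lay within the range of Vil-Cre:NDI1 mice. The log2 fold change was -0.68 (SE 0.25, 95% interval -1.24 to -0.13; limma adjusted p = 0.998), and the exact permutation test gave p = 0.0556. None of the 5 Vil-Cre:NDI1 mice reached the Vil-Cre mean of *Ass1* (124), and Vil-Cre 2 and 4 did not reach it either. For *Prodh* and *Asl*, too, no Vil-Cre:NDI1 mouse reached the Vil-Cre mean. The 3 high libraries were those with the highest hepatocyte marker sums. Without them, a setting chosen after the values were seen, the *Ass1* log2 fold change was -0.09, but removing the 3 highest *Ass1* values, all in Vil-Cre mice, lowers the difference by construction, so this value is no test. Without Vil-Cre 1 the unadjusted limma p was 0.0545, and without Vil-Cre 5 it was 0.0521. DESeq2 on reads recovered from 8 libraries (without Vil-Cre 3 and 4) called *Ass1* lower, with a log2 fold change of -0.95 and an adjusted p of 0.0325. By DESeq2 on all 10 libraries the *Ass1* adjusted p was 0.284, and 31 genes were called in the whole table. The fit on 8 libraries called more genes, and that count is given at the end. Vil-Cre 4 had the lowest *Ass1* value of the Vil-Cre mice (72.8), so leaving it out enlarges the difference. Vil-Cre 1 and 5, with the highest hepatocyte sums, stayed in.

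*Asl*, at chr5:130011258-130029247, encodes argininosuccinate lyase, which releases arginine. Vil-Cre mice had 397, 167, 171, 361 and 294 normalized counts, and Vil-Cre:NDI1 mice had 244, 168, 169, 264 and 201. Its 3 highest values were in Vil-Cre 1, 4 and 5, which is not the set that was high in *Ass1*. The log2 fold change was -0.34 (SE 0.26, 95% interval -0.91 to 0.22; exact permutation p = 0.262). The *Ass1* to *Otc* ratio was 0.0972 in Vil-Cre and 0.0562 in Vil-Cre:NDI1 mice, a log2 difference of -0.79 (p = 0.0714 by exact permutation, 0.214 adjusted over the 3 ratios). Without Vil-Cre 4 the difference was -1.02 (p = 0.0159, exact permutation test, not adjusted over the ratios). Vil-Cre 4 had the lowest ratio of the Vil-Cre mice (0.0509), so leaving it out enlarges the difference. With any other mouse left out, p ran from 0.0556 to 0.127 by the same test. The ratio was highest in Vil-Cre 1, 3 and 5, the libraries with the highest hepatocyte sums.

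Arginine breakdown was read from *Arg2*, at chr12:79130777-79156301, the mitochondrial arginase of extrahepatic tissues, which returns ornithine. Normalized counts were 2570, 2161, 3913, 3735 and 1550 in Vil-Cre and 3767, 3342, 3554, 1698 and 3060 in Vil-Cre:NDI1 mice. Vil-Cre 5 and Vil-Cre:NDI1 4 were far below the rest, with a 2.52-fold range over the 10 mice. The log2 fold change was 0.18 (SE 0.28, 95% interval -0.43 to 0.79; exact permutation p = 0.595). It was -0.01 without Vil-Cre 5, 0.38 without Vil-Cre:NDI1 4 and 0.56 by DESeq2 on the 8 libraries without Vil-Cre 3 and 4 (adjusted p = 0.268). Vil-Cre 3 and 4 had the highest *Arg2* values of the Vil-Cre mice (3913 and 3735), so leaving them out raises the fold change. *Vti1b* overlaps *Arg2* on the other strand, at a mean of 1082. *Arg1*, the cytosolic arginase typical of liver, was below the filter, with 57.0, 5.47, 12.02, 9.10 and 21.4 normalized counts in Vil-Cre and 5.88, 0, 0.968, 3.92 and 1.17 in Vil-Cre:NDI1 mice.

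Over the 9 genes, 0 passed an adjusted p of 0.05 by limma, with an adjusted p of 0.998 for each. By edgeR on recovered reads the count was also 0, with 1 gene called in the whole table, and by DESeq2 on all 10 libraries it was 0, with 31 genes called. At an unadjusted p under 0.05 by limma there was 1 of 9, *Ass1*, beside 4.24% of all genes tested. No gene of the 9 had groups that did not overlap, beside 0.699% of all genes. The median log2 fold change was -0.04, and that of all genes was 0.0051. The 95% intervals reached up to 1.27-fold in *Otc* and 1.72-fold in *Arg2*, and down to 0.533-fold in *Asl* and 0.624-fold in *Prodh*. That of *Ass1* ran from 0.423-fold to 0.916-fold before adjustment over all genes. Differences within these intervals were not resolved by 5 mice per group.

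**Figure D3:**
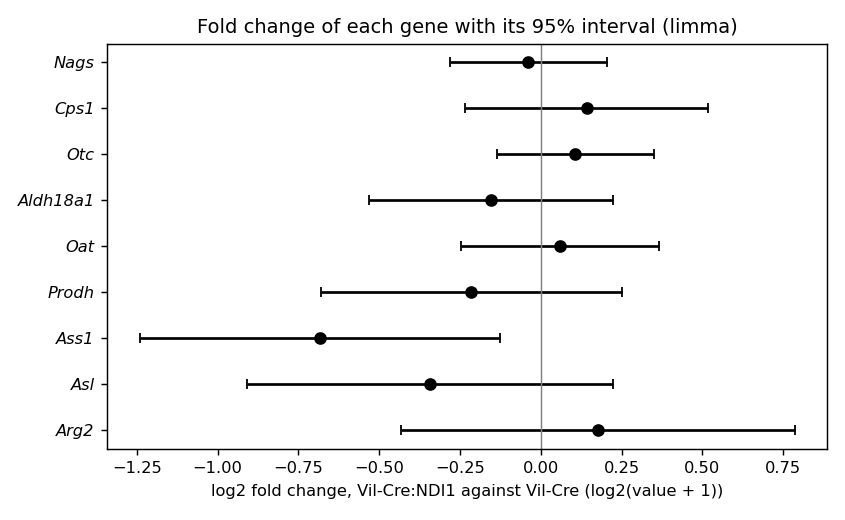
Log2 fold change of each gene, Vil-Cre:NDI1 against Vil-Cre (horizontal axis, log2(value + 1) scale), with its 95% interval from limma, 5 mice per genotype. Intervals of 8 genes include 0, and that of *Ass1* runs from -1.24 to -0.13 before adjustment over all genes.

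How far a gene varied from mouse to mouse differed between the enzymes. Within genotypes the SD on the log2 scale was lowest for *Nags* (0.175) and *Otc* (0.181), below the median of all genes tested (0.292), and highest for *Arg2* (0.514), *Asl* (0.466) and *Ass1* (0.434). By level, *Nags*, *Otc* and *Arg2* stood at percentiles 77.0, 88.0 and 95.5 of the genes tested, and *Asl* and *Ass1* at 55.6 and 35.9. The SDs were not compared at equal level. No pair of the enzymes was correlated past the test. Of 36 pairs correlated across the 10 mice, 22 had a Pearson r above 0, the median r was 0.095, and 0 passed an adjusted p of 0.05, with 4 at an unadjusted p under 0.05. The closest pair was *Oat* and *Arg2* (r = 0.783, p = 0.00868; rho = 0.588, p = 0.0809; adjusted p = 0.297; permutation tests), and r was 0.403 without the 2 mice farthest from the median of *Oat*. Without Vil-Cre 1 its adjusted p was 0.0338 (r = 0.924). Vil-Cre 4 had the highest value of 4 of the 9 genes, Vil-Cre 5 the lowest of 4, and Vil-Cre:NDI1 5 the lowest of 3.

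**Figure D4:**
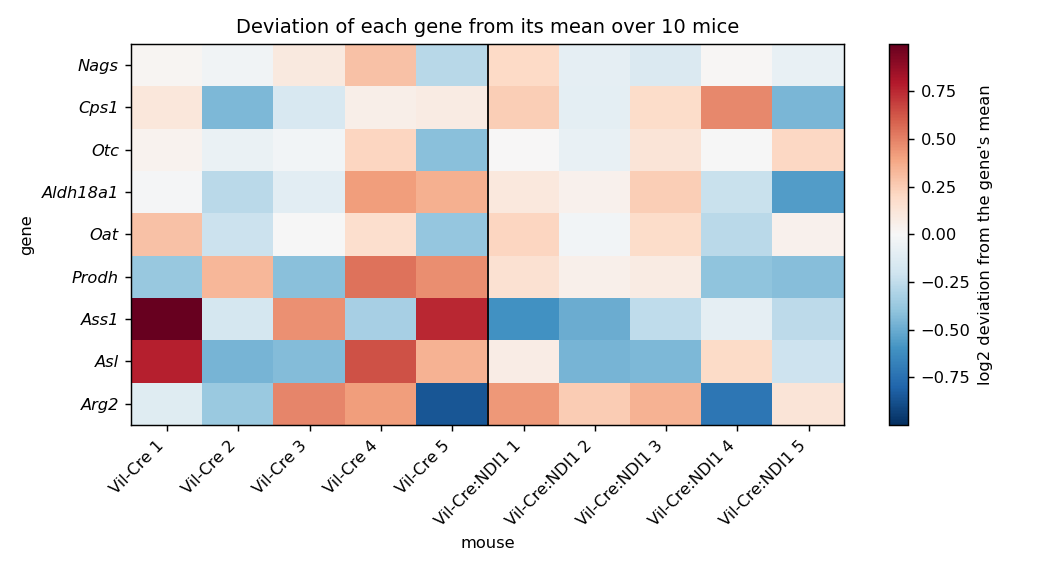
Log2 deviation of each gene (rows) in each mouse (columns) from the gene's mean over 10 mice, with red above and blue below the mean and a line between the genotypes. No column is of 1 colour throughout, and the cells farthest from 0 are *Ass1* of Vil-Cre 1 (1.00) and *Arg2* of Vil-Cre 5 (-0.85).

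*Ass1*, *Cps1* and *Arg2* instead followed summed markers of a cell type or gut region from mouse to mouse, though not every single marker. Summed markers of 13 lists were correlated with the 9 genes on the log2 scale, 117 relations in all, and 4 passed an adjusted p of 0.05 by Pearson r and 4 by Spearman rho. The relations were chosen after the values were seen. The first was *Ass1* with the hepatocyte sum (r = 0.976, p = 5e-05; rho = 0.976, p = 2e-05; adjusted p = 0.00195; permutation tests). It was 0.932 without the 2 farthest mice, 0.958 for deviations from genotype means and 0.796 in the 7 libraries with the lowest hepatocyte sums. *Ass1* had a positive r with each of the 11 markers, from 0.394 for *Itih3* to 0.964 for *Fgb*. Its 3 most similar genes among all tested were *Alb* (r = 0.939), *Slc25a47* (0.931) and *Tat* (0.921). *Alb* encodes albumin and *Tat* a tyrosine aminotransferase of liver. The part of hepatocyte RNA in the *Ass1* value was not tested beyond these numbers. For the other urea cycle enzymes among the 9 genes and the hepatocyte sum, r was -0.066 for *Cps1* (p = 0.855), -0.540 for *Otc* (p = 0.107) and 0.267 for *Asl* (p = 0.448; permutation tests). *Arg1* of the urea cycle was below the filter and was not correlated. Its highest values, 57.0, 21.4 and 12.02 normalized counts, were in Vil-Cre 1, 5 and 3. Whether *Cps1* or *Otc*, with far higher counts than *Ass1*, hold a small share of hepatocyte RNA was not tested.

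*Cps1* followed the crypt sum of *Lgr5*, *Olfm4*, *Mki67*, *Top2a* and *Ascl2* (r = 0.955, p = 2e-05; rho = 0.903, p = 0.00067; adjusted p = 0.00195; permutation tests). The sum was lowest in Vil-Cre:NDI1 5 (1859) and highest in Vil-Cre:NDI1 4 (4131), the same mice as for *Cps1*. Without these 2 mice r was 0.895, and it was 0.974 for deviations from genotype means. Single markers were less close, with r = 0.831 for *Olfm4*, a crypt base gene, 0.803 for *Mki67*, a proliferation marker, 0.659 for *Top2a*, 0.369 for *Lgr5* and 0.157 for *Ascl2*. The genes most similar to *Cps1* were *Apex1* (r = 0.957), *Nol9* (0.952) and *Ccnf* (0.941), which are known from DNA repair, ribosome synthesis and the cell cycle. The crypt sum overlapped between genotypes (2110 to 3105 in Vil-Cre, 1859 to 4131 in Vil-Cre:NDI1 mice).

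*Arg2* followed the proximal small intestine sum (r = 0.956, p = 4e-05; rho = 0.915, p = 0.00054; adjusted p = 0.00195) and the villus tip sum (r = 0.945, p = 7e-05; rho = 0.915, p = 0.00056; adjusted p = 0.00205; permutation tests). Without the 2 farthest mice r was 0.926 and 0.912, and for deviations from genotype means it was 0.960 and 0.952. Each sum was carried by 1 gene. *Gata4*, a transcription factor of proximal gut, had r = 0.961 with *Arg2*, while *Cybrd1*, a duodenal iron reductase at 13.7 to 37.2 normalized counts, had r = -0.780. *Apoa4*, an apolipoprotein of fat-absorbing enterocytes, had r = 0.960, *Ada* 0.588 and *Nt5e* 0.442. *Arg2* had 220 genes with r above 0.9, against 13 for *Cps1*, 20 for *Otc* and 7 for *Ass1*, and the closest were *Cdip1* (0.992), *Pbld2* (0.985) and *Gde1* (0.985).

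Ileal markers stood on the opposite side of *Arg2*. The sum of *Fabp6* and *Slc10a2*, an ileal bile acid binding protein and the ileal bile acid transporter, was 2039 in Vil-Cre 5, 1312 in Vil-Cre:NDI1 4, 886 in Vil-Cre 2, 420 in Vil-Cre:NDI1 5 and 235 in Vil-Cre 1. In the other 5 libraries it was between 7.84 and 21.9, so the mice formed separate clusters and no correlation is given. The 5 libraries with the ileal transcripts had *Arg2* at 1550 to 3060 and the other 5 at 3342 to 3913. This split was read after the values were seen, and the other enzymes were not compared in this way. The share of all genes that separate these libraries was not counted, and 220 genes had r above 0.9 with *Arg2*. Both kinds of library occurred in both genotypes. The part of the position along the gut in these values was not tested.

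**Figure D5:**
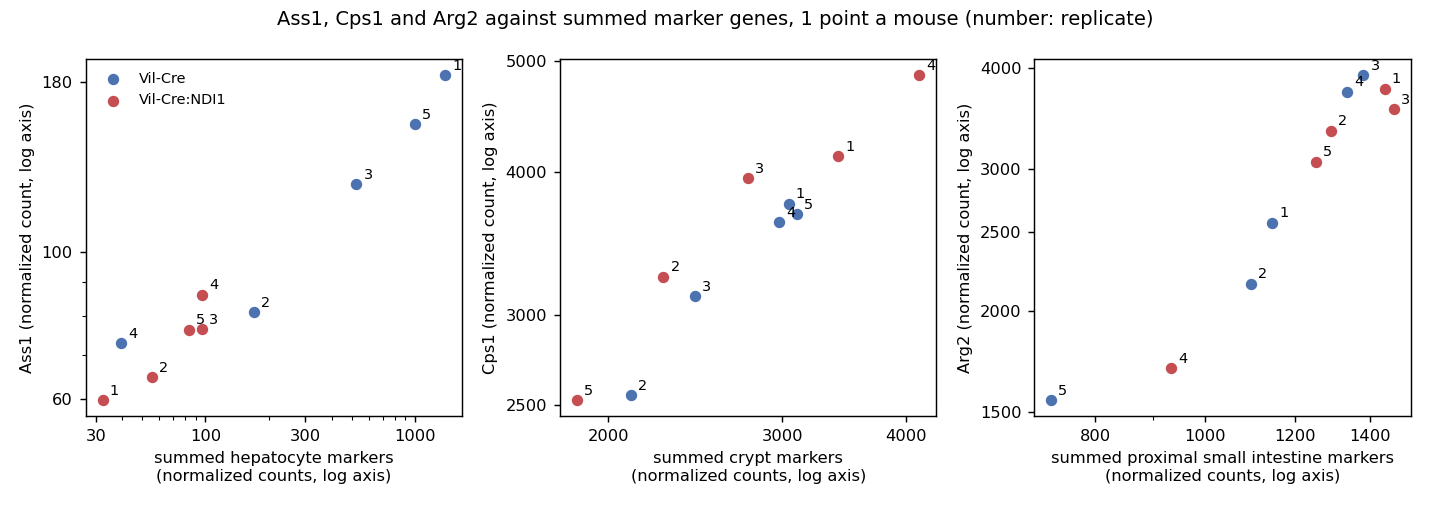
*Ass1*, *Cps1* and *Arg2* (vertical axes, normalized counts, log scale) against the summed hepatocyte, crypt and proximal small intestine markers (horizontal axes, normalized counts, log scale), 1 point per mouse with its replicate number, coloured by genotype. Each gene climbs with its marker sum in both genotypes, with r = 0.976, 0.955 and 0.956. The proximal sum is carried by *Gata4*, and its other gene, *Cybrd1*, had r = -0.780 with *Arg2*.

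*Otc*, *Nags*, *Aldh18a1*, *Oat*, *Prodh* and *Asl* had no relation that passed. The nearest was *Oat* with the proximal small intestine sum (r = 0.803, p = 0.00371; rho = 0.673, p = 0.039; adjusted p = 0.0868; permutation tests), where r was 0.416 without the 2 farthest mice. *Otc* with the enterocyte sum had r = 0.807 (p = 0.0167; rho = 0.358, p = 0.312; adjusted p = 0.244; permutation tests), and r was -0.074 without Vil-Cre 5 and Vil-Cre:NDI1 5. *Otc* was most like *Rab11fip1* (0.948), *Sdf4* (0.942) and *Lrrc19* (0.938).

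The wider pathway comprised 58 genes in 6 lists, of which 53 passed the filter. None of the 53 passed an adjusted p of 0.05 by limma, 34 had a log2 fold change above 0 and 19 below, and the median was 0.04. An unadjusted p under 0.05 was reached by 4, *Odc1*, *Azin1*, *Slc25a1* and *Slc7a7*, beside 4.24% of all genes tested, and the groups of all 4 overlapped. Of these, *Odc1*, *Slc25a1* and *Slc7a7* lost this level with the replicate block, and *Azin1*, *Slc25a1* and *Slc7a7* with equal library totals. In glutamine, glutamate and proline metabolism 0 of 13 tested genes passed. *Glud1*, glutamate dehydrogenase, had 9287 ± 2905 normalized counts in Vil-Cre and 10345 ± 1297 in Vil-Cre:NDI1 mice (SD, n = 5 mice each). *Aldh4a1*, which returns pyrroline-5-carboxylate to glutamate, had 1638 ± 251 and 2124 ± 662 (log2 fold change 0.33, SE 0.20; limma adjusted p = 0.998). *Pycr1*, which makes proline, was low, at 27.9 ± 11.6 and 28.1 ± 11.7.

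Among mitochondrial carriers 0 of 6 tested genes passed. *Slc25a15*, which exchanges ornithine and citrulline across the inner membrane, had 3394 ± 251.95 normalized counts in Vil-Cre and 3763 ± 469 in Vil-Cre:NDI1 mice. *Slc25a1*, the citrate carrier, had 1496 ± 142 and 1716 ± 97.7 (log2 fold change 0.20, SE 0.08; limma adjusted p = 0.998).

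For arginine use and polyamines 0 of 10 passed. *Odc1*, ornithine decarboxylase, competes for ornithine with *Otc*. It had 1483, 1489, 1961, 1297 and 1340 normalized counts in Vil-Cre and 1908, 1710, 1592, 2072 and 2551 in Vil-Cre:NDI1 mice. All Vil-Cre:NDI1 values were above those of 4 Vil-Cre mice, and Vil-Cre 3 lay among them. Its log2 fold change was 0.37 (SE 0.14; limma adjusted p = 0.998). *Azin1*, the antizyme inhibitor that spares ODC1 from degradation, had 2966, 3342, 3583, 2738 and 3181 in Vil-Cre and 3429, 3479, 3821, 3842 and 4234 in Vil-Cre:NDI1 mice. Again Vil-Cre 3 alone overlapped the other genotype, and the log2 fold change was 0.25 (SE 0.09; limma adjusted p = 0.998). In the 7 libraries with the lowest hepatocyte sums, *Odc1* had a log2 fold change of 0.48 and *Azin1* of 0.31 (limma adjusted p = 1.00 for both). These libraries exclude Vil-Cre 3, which had the highest value of both genes among the Vil-Cre mice. Leaving Vil-Cre 3 out raises both fold changes by construction, so these values are no test.

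In the nitric oxide list 0 of 5 passed. *Nos2* varied most, from 83.2 to 861 normalized counts in Vil-Cre mice, and in Vil-Cre:NDI1 mice from 163 to 2045, and *Nos3* had 42.2 ± 18.9 and 33.9 ± 12.1. Among membrane transporters 0 of 9 passed. *Slc7a9*, the apical carrier of cationic amino acids, had 2744 ± 349 and 2878 ± 516. *Slc7a7*, its basolateral counterpart, had 3395 ± 428 and 3907 ± 155 (log2 fold change 0.21, SE 0.09; limma adjusted p = 0.998). Of the regulators 0 of 10 passed, and *Sirt5*, a mitochondrial deacylase that acts on CPS1, had 51.4 ± 6.08 and 56.2 ± 4.71.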

How the data were processed

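Jejunal RNA was sequenced in 5 control (Vil-Cre) mice and 5 Vil-Cre:NDI1 mice, grouped by the labelled genotype. The authors ran nf-core/rnaseq 3.12.0 (trimGalore! 0.6.7, STAR 2.6.1d on GRCm38 with NDI1 added, Salmon 1.10.1) on single-end reads and divided gene counts by DESeq2 1.46.0 size factors, so the deposited values are a signal of normalized counts and not raw counts. The annotation release and strand setting are not given in the sources used here. All non-zero values (100%, tolerance 0.01) divided evenly by the value of 1 read, which gave the reads back. In Vil-Cre 3 and 4 that value was near 1 (1.00184 and 1.01109), and count tests were also run on the other 8 libraries. Values of Vil-Cre 3 and 4 divided as evenly as those of the other libraries (100%), so recovery of reads gives no reason to leave them out. Totals of 10145705 to 12371530 reads per library bound counting error only.

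Genotypes were compared with limma 3.58.1 (R 4.3.3, variance trend) on log2(value + 1) over the 14301 genes with a value of 10 or more in 5 or more mice, adjusted by Benjamini-Hochberg. This scale understates changes of low genes. Single values and ratios used two-sided exact permutation over 252 assignments (smallest p 0.00794), and correlations used 100000 permutations. P-values set a difference of genotypes, or a correlation, against the spread between mice. DESeq2 1.42.0 (authors' size factors) and edgeR 4.0.16 (TMM) on recovered reads, pseudocounts of 0.1 and 8, other filters, equal totals, a replicate block and leaving out each mouse were alternatives. The fits were tested on simulated data. Same-numbered mice did not deviate together (correlations -0.12 to 0.14), so the numbers were not taken as pairs.

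The members, lists and tests were chosen with earlier results of these data known. The text names NDI1, the 9 genes, fixed pathway genes, listed genes with an unadjusted p under 0.05, *Alb*, *Vil1*, and the 3 genes most like *Cps1*, *Otc*, *Ass1* and *Arg2*. Another gene that this rule takes is not reported here. Other marker and overlapping genes were named after their values were seen. Of the listed genes, *Prodh2*, *Slc25a2*, *Slc25a18* and *Arg1* were below the filter and *Pycr3* was not analysed here. Coordinates and exon lengths are from GENCODE M21 (GRCm38).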

Additional observations from a re-analysis of the deposited data

Results flagged for a closer look

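Over 44 groups of 5 mice checked for a value far from the other 4, 3 were found, and about 1 in 20 groups, or 2.2 here, would be found by chance. *Slc25a15* in Vil-Cre:NDI1 5 stood at 4570 normalized counts, and its group otherwise ranged from 3367 to 3708. *Odc1* in Vil-Cre 3 stood at 1961, and its group otherwise ranged from 1297 to 1489. The NDI1 transgene had 1.00 normalized count, a single read, in Vil-Cre 3 and 0 in the other Vil-Cre libraries.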

How the results depend on the processing

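The count of the 9 genes past an adjusted p of 0.05 was 0 under the other pseudocounts, filters, scaling, count tests on 10 libraries, the replicate block and each mouse left out and 1 (*Ass1*, log2 fold change -0.95, adjusted p 0.0325) by DESeq2 on 8 libraries, where 2 of the 9 reached an unadjusted p under 0.05. The count of all genes was 2 with a minimum of 50, 31 by DESeq2, 276 by DESeq2 on 8 libraries, 1 by edgeR, and 1 to 3 with 1 mouse left out. At an unadjusted p under 0.05, 2 of the 9 passed with the replicate block (*Ass1* and *Asl*), and 0 to 1 with 1 mouse left out (0 without Vil-Cre 1 or Vil-Cre 5). With the block *Odc1*, *Slc25a1* and *Slc7a7* no longer reached an unadjusted p of 0.05, and no adjusted call of the 9 or of the 53 further genes changed. With 1 mouse left out the log2 ratio ran from -0.21 to 0.081 for *Otc* to *Cps1*, from -1.02 to -0.60 for *Ass1* to *Otc* and from -0.082 to 0.16 for *Aldh18a1* to *Prodh*, and 0 to 1 pairs of genes were correlated. Relations with marker lists numbered 4 to 5; the fifth was *Nags* with B and plasma cell markers (equal totals, r = 0.862; without Vil-Cre 5, r = 0.915) or *Oat* with the proximal sum (without Vil-Cre 1, r = 0.927).

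Signs turned in genes that had passed no test, and the cause was not tested. With equal totals the log2 fold change was -0.0038 for *Oat*, -0.037 for *Pycr1* and -0.0028 for *Slc7a9*, and by edgeR it was -0.0011 for *Pycr1*. By DESeq2 and edgeR on 8 libraries it was 0.079 and 0.072 for *Nags*, -0.33 and -0.34 for *Pycr1*, and -0.049 and -0.056 for *Slc7a9*. In the 7 libraries with the lowest hepatocyte markers it was -0.019 for *Otc*, -0.013 for *Glud1*, -0.75 for *Nos2* and 0.54 for *Nos3*. With 1 mouse left out it ran from -0.11 to 0.030 for *Nags*, -0.031 to 0.14 for *Oat*, -0.014 to 0.38 for *Arg2*, -0.18 to 0.19 for *Pycr1*, -0.33 to 0.58 for *Nos2* and -0.012 to 0.13 for *Slc7a9*. The fits on 7 and 8 libraries and the marker relations were chosen after seeing the data. The fits on 8 libraries leave out the lowest *Ass1* value and the highest *Arg2* values of the Vil-Cre mice. With 61 to 197 *Ass1* reads per library, its counting error is the largest of the 9 genes.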
